A study of Bos taurus with 12 samples.

Results

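At 3629 CpGs in blood DNA of dairy cows, at least 1 cow had a methylation value of exactly 0% on one DNA strand and a value above 0% on the other. Such a pair of values in a cow is called a strand-discordant zero here. These CpGs were found by pairing the plus-strand cytosine at one position with the minus-strand cytosine at the next, and they make up 8.43% of the 43073 CpGs with both cytosines listed. A further 110129 CpGs were listed on a single strand and could not be paired, so the 3629 are taken from 153202 CpGs and 196275 strand cytosines in all. The zeros and the values opposite to them chose these CpGs, so their presence and the heights opposite are described without a test. The rule did not use which strand held the 0, which group the cow was in or neighbouring CpGs. The tests of strand, group and neighbour below are on these. The rule did use the values of all cows, since a discordant zero in any cow kept the CpG. The discordant zeros in these tests are thus the values that met the rule. Only the recurrence test chose its CpGs without the cow being tested. The authors' listing of cytosines did use the groups, as described below. The 39444 CpGs with both strands listed and no strand-discordant zero serve as the comparison.

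Blood was sampled from 12 cows kept on a farm under shared conditions. The Mastitis Susceptible Group (MSG, 6 cows) was culled in the course of 1 year for complications of mastitis, which had not been recognised when blood was drawn. The Mastitis Resilient Group (MRG, 6 cows) was still in the herd at that time and had a similar spread of ages. The labels named no treatment, breed, parity, batch or blood cell count for either group. Values were percent methylation per cytosine and cow from enzymatic methylation sequencing, in which unmodified cytosines are read as thymines and methylated or hydroxymethylated cytosines are read as cytosines. Coordinates are those of the assembly ARS-UCD1.2.

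A CpG reads the same on both strands, so each CpG offers a cytosine on the plus strand and a cytosine on the minus strand. After DNA replication the maintenance enzyme DNMT1 copies the mark from the old strand to the new strand, and most CpGs of vertebrate cells are thus methylated on both strands or on neither. A CpG marked on one strand alone is called hemimethylated. Blood is a mixture of cell types with methylomes of their own, and a shift in the share of cells of a type and a shift of methylation within cells cannot be told apart in these samples. The percent per strand is an average over reads of the 2 strands taken separately, so a value of 0 on one strand does not show a hemimethylated molecule.

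Every listed cytosine had been selected by the authors for a group difference of at least 25 percentage points and a q-value of at most 0.01 in these cows. Group differences at these CpGs therefore restate that selection. The number of CpGs with a value on both strands ran from 39764 to 42856 per cow. Read depth did not enter any of the values below.

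Strand-discordant zeros were rare among the values and mostly small on the opposite strand. Of 502919 values of a cow with both strands present, 4235 (0.842%) were discordant, while 118167 (23.5%) were 0 on both strands. Among values with a 0 on at least one strand, 3.46% were thus discordant. The strand above 0 stood at a median of 8.33%, with a 10th percentile of 5.26% and a 90th percentile of 42.9%. It was under 10% in 2424 of the 4235 values, from 10% to under 25% in 967, from 25% to under 50% in 557, and 50% or more in 287. A discordant zero opposite a value of at least 25% was present at 823 CpGs, and opposite at least 50% at 285. The share of discordant CpGs fell with the mean methylation over the cows, from 15.7% of 2285 CpGs averaging under 20% to 1.07% of 2807 CpGs averaging 80% or more. That order follows in part from the rule, since a 0 is seldom reached at a CpG that is methylated in nearly all cows.

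**Figure D1:**
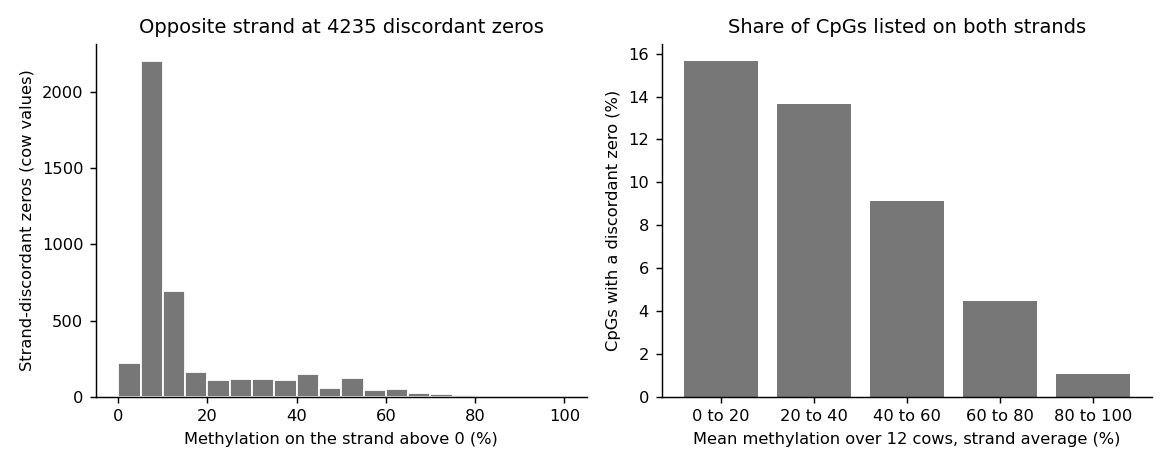
Left, histogram of percent methylation on the strand above 0 (horizontal axis) for the 4235 strand-discordant zeros, counted in cow values (vertical axis). Right, percent of CpGs listed on both strands that hold a strand-discordant zero (vertical axis) by mean methylation over the 12 cows (horizontal axis). Most opposite values lie under 25%, and the bars fall from 15.7% to 1.07%.

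Just inside the rule lay a promoter CpG of LOC112443340 (chromosome 21, 33026010 to 33026011), where the plus strand was at 0 in MSG replicate 5, MRG replicate 3 and MRG replicate 2. The minus strand stood at 0.0442%, 0.0971% and 0.2304% in these cows. Just outside the rule, the lowest value above 0 at a CpG without a discordant zero was 2.5%, with 13.6% on the other strand.

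The CpGs lay mostly away from genes. Distal intergenic sequence held 2173 of them (59.9%, against 57.05% of the other CpGs listed on both strands), introns 1196 (33.0% against 36.3%), promoters 206 (5.68% against 5.31%) and exons 35 (0.965% against 0.920%). The 3' untranslated regions held 13, sequence just downstream of genes 6, and 5' untranslated regions 0. The median distance to the nearest transcription start was 44660 bases, against 43330 bases at the other CpGs. Chromosome 1 held the most, 376 of its 4296 CpGs listed on both strands (8.75%), and chromosome 8 held 221 (10.03%). These shares are close to those of the other CpGs, and no test was made over CpGs, which are not independent replicates.

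Neither strand held more of the zeros beyond the spread between cows. The plus strand held the 0 in 2100 values and the minus strand in 2135. Per cow the plus strand held 49.6% ± 1.702 of the zeros (SD, n = 12 cows), with a lowest value of 47.8% and a highest of 53.7%. The difference from an even split was not beyond the spread between cows (exact sign-flip permutation test over 4096 sign patterns, two-sided p = 0.471, adjusted p = 0.471). The adjusted p here and in the tests per cow that follow is the Benjamini-Hochberg value over 7 such tests, and the smallest p that 12 cows allow in a sign-flip test is 0.000488.

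The rate of discordant zeros did not differ between the groups beyond the spread between cows. The MSG cows had 310 to 376 discordant zeros with a median of 332, and the MRG cows had 304 to 441 with a median of 364.5. As a share of a cow's values on both strands, the MSG cows ran from 0.728% to 0.896% with a median of 0.778%, and the MRG cows from 0.712% to 1.06% with a median of 0.864%. The ranges overlapped, and both the lowest and the highest cow were MRG cows. The MSG mean was 0.797% ± 0.0620 and the MRG mean 0.890% ± 0.125 (SD, n = 6 per group), a difference of -0.0924 points (exact permutation test over 924 regroupings, two-sided p = 0.143, adjusted p = 0.167). Without MRG replicate 1, the lowest cow, the difference was -0.128 points with an exact permutation p of 0.0260. For zeros opposite at least 25% methylation the MSG mean was 0.126% and the MRG mean 0.213%. Such p-values measure the spread between these cows only. The cytosines were listed for a group difference in the same cows, so the rates per group are not free of that selection.

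The share of zeros opposite a high value varied between cows. In MRG replicate 3, which had the fewest values on both strands (39764), 35.2% of the discordant zeros stood opposite at least 25% methylation, and in MRG replicate 4, with 40810 values, 31.8%. In MSG replicate 2, the MSG cow with the fewest values (41064), the share was 24.5%. In MSG replicate 6, with 42856 values, the share was 12.9%, and in MSG replicate 3, with 42812, it was 10.65%. The MSG cows ran from 10.65% to 24.5% with a median of 14.04% and the MRG cows from 14.8% to 35.2% with a median of 20.8%, so the groups overlapped. The opposite values are those that chose the CpGs, and these shares are a description; the part of a cow's number of values in them and in the group comparison above was not tested.

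**Figure D2:**
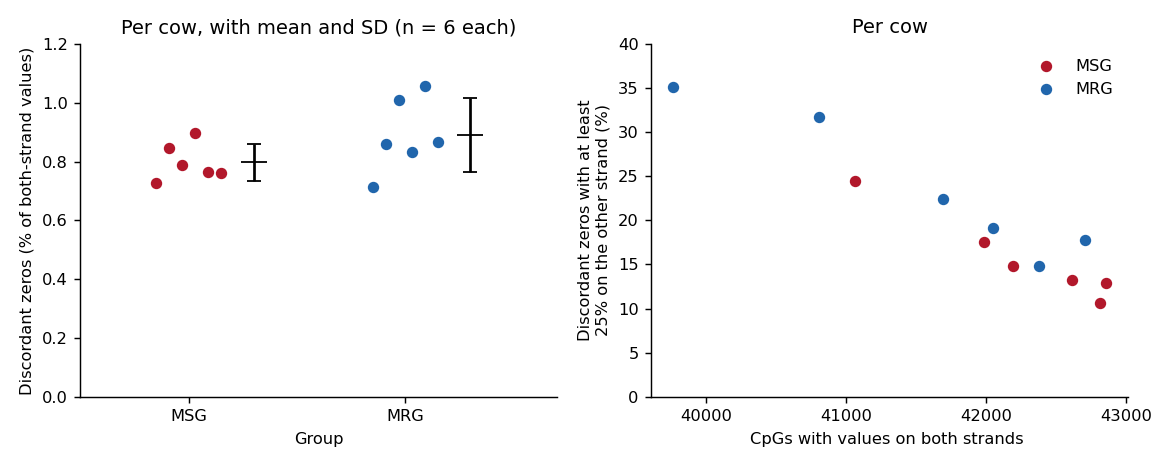
Left, strand-discordant zeros as percent of a cow's values on both strands (vertical axis) for MSG and MRG cows, with a bar for the mean and whiskers for the SD (n = 6 each); the 12 cows lie between 0.712% and 1.06%, and the groups overlap. Right, percent of a cow's discordant zeros opposite at least 25% methylation (vertical axis) against its number of CpGs with values on both strands (horizontal axis, which does not start at 0); the points lie between 35.2% and 10.65%, and the cow with the fewest values is the highest.

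Most of the CpGs were discordant in a single cow, but zeros returned at the same CpGs in other cows more often than elsewhere. The count of discordant cows was 1 at 3212 CpGs, 2 at 302, 3 at 73, 4 at 18, 5 at 19, 6 at 2 and 7 at 3. To test recurrence without the cow that chose the CpG, each cow was set against CpGs chosen by the other 11 cows. At those CpGs a cow had a discordant zero in 1.88% to 3.03% of its values (mean 2.62% ± 0.319, SD, n = 12 cows), and at CpGs not chosen by the others in 0.573% to 0.916% (mean 0.694% ± 0.109). The share was higher at the chosen CpGs in 12 of 12 cows, by 1.93 points (exact sign-flip permutation test, p = 0.000488, adjusted p = 0.000684). The chosen CpGs were not matched to the others for mean methylation, and discordant zeros were more frequent where it was low. The part of the level in this difference was not tested. A CpG discordant in 2 cows counts for both, so the shares per cow are not independent. Among values with a 0 on at least one strand, a comparison added after the data had been seen, the shares were 8.40% and 2.94% (exact sign-flip permutation p = 0.000488, 12 of 12 cows). With CpGs and zeros limited to at least 25% on the opposite strand, the shares were 0.441% and 0.165% (exact sign-flip permutation p = 0.00244, higher in 11 of 12 cows). At a minimum of 50% they were 0.146% and 0.0572% and did not differ beyond the spread between cows (exact sign-flip permutation p = 0.260, higher in 3 of 12 cows). The 287 zeros at that minimum lay at 285 CpGs, so hardly any returned and this last test cannot decide on recurrence there.

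The returning zeros fell mostly on the same strand. Of the 417 CpGs with at least 2 discordant cows, 295 (70.7%) had the 0 on one strand in all of them. In a comparison added after the data had been seen, a cow's zero was set against the strand that was more often at 0 in the other discordant cows of that CpG. It lay on that strand in 69.4% to 88.6% of cases per cow (mean 78.05% ± 6.32, SD, n = 12 cows, over 951 zeros), above an even split in 12 of 12 cows (exact sign-flip permutation p = 0.000488, adjusted p = 0.000684). At the 302 CpGs with 2 discordant cows, both cows have the same outcome. The shares per cow are thus not independent, while the test treats them as if they were.

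The same strand tended to be at 0 at the next CpG. For 517 discordant zeros another listed CpG with both strands valued lay within 100 bases, at a median distance of 28 bases. On the strand that held the 0, the neighbour was also at exactly 0 in 70.7% ± 9.86 of cases per cow, and on the strand above 0 in 49.3% ± 10.4 (SD, n = 12 cows). The difference of 21.4 points was above 0 in 12 of 12 cows (exact sign-flip permutation p = 0.000488, adjusted p = 0.000684). With neighbours within 500 bases it was 10.1 points (67.7% against 57.6%, above 0 in 11 of 12 cows, exact sign-flip permutation p = 0.000977). For zeros opposite at least 25% methylation, with neighbours within 100 bases, it was 18.6 points ± 26.3 (21.95% against 3.31%, SD, n = 12 cows). There it was above 0 in 6 of 12 cows (exact sign-flip permutation p = 0.0313). Neighbouring cytosines of a strand can lie on the same sequenced fragments, so the neighbour is not a separate measurement.

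The neighbour's level was also set beside the 0 and the opposite value, as a description, since both chose the CpGs. The mean of the neighbour's strands was nearer to the 0 than to the opposite value in 62.4% ± 9.27 of cases per cow (SD, n = 12 cows), over 488 cases without a tie. For zeros opposite at least 25% methylation it was nearer to the 0 in 19.8% ± 17.1. This second share follows in part from the choice of high opposite values.

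**Figure D3:**
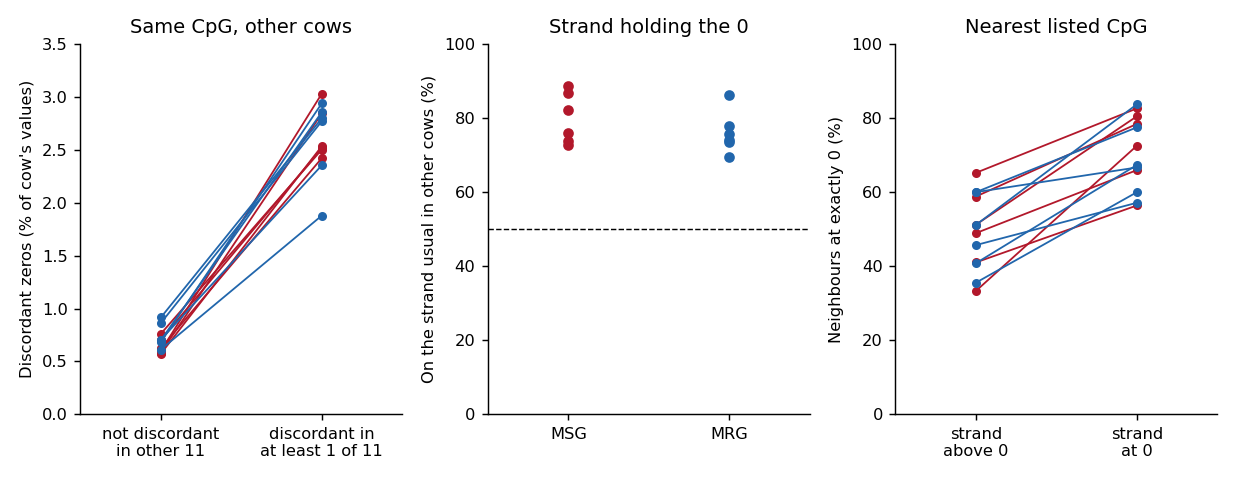
Per cow (red MSG, blue MRG, lines join a cow), from left to right: strand-discordant zeros in percent of the cow's values at CpGs without and with a discordant zero in the other 11 cows; percent of zeros on the strand usual in other discordant cows, with a dashed line at an even split; percent of nearest listed CpGs within 100 bases at exactly 0 on the strand above 0 and on the strand at 0. In each panel the 12 cows lie on one side: 2.62% against 0.694%, 78.05% against an even split, and 70.7% against 49.3% on average.

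Where both strands were above 0, they were further apart at these CpGs than at the others, but not detectably so at strand averages from 20% to 80%. The absolute gap between the strands had a per-cow median of 9.22 points on average at these CpGs and 8.43 points at the others, higher in 12 of 12 cows (exact sign-flip permutation p = 0.000488, adjusted p = 0.000684). The CpGs were also less methylated, with a median level over cows of 40.6% against 55.55%. In that range, an alternative added after the data had been seen that narrows the level without matching it, the gap was 13.0 points at both, a difference of 0.0121 points (exact sign-flip permutation p = 0.936, higher in 6 of 12 cows).

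Discordant zeros lay mainly in the group whose mean was lower, like zeros on both strands. Of the 3629 CpGs, 1885 were higher and 1744 lower in MSG (51.9% higher, against 52.1% of the other CpGs listed on both strands). At CpGs higher in MSG, 392 discordant zeros were in MSG cows and 1758 in MRG cows. At CpGs lower in MSG, 1628 were in MSG cows and 457 in MRG cows. In all, 3386 of the 4235 discordant zeros (79.95%) were in the lower group, and of the values at 0 on both strands at the same CpGs 80.7% were. These shares follow in part from the design and are a description. Each zero lowers the mean of its own group, and every CpG was listed for a group difference. Discordant zeros were present in MSG cows alone at 1621 CpGs, in MRG cows alone at 1838 and in both groups at 170. At 3159 of the CpGs (87.05%) at least 1 cow was at 0 on both strands, against 83.9% of the other CpGs.

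The deposited difference had the same sign on both strands at all 3629 CpGs, and at the other 39444 as well. The deposited differences of the strands lay a median of 4.96 points apart, against 4.69 points at the other CpGs. The difference of the strand averages had a median size of 36.8 points, against 35.9 points. Leaving out the discordant zeros changed the size of the difference by a median of -2.18 points among the 3593 CpGs that kept at least 3 cows per group, and the direction changed at 1 of them. With the strand above 0 used alone, the median change was -0.641 points and no direction changed.

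No CpG passed the test between groups. With limma and Benjamini-Hochberg adjustment, 0 of the 7258 strand cytosines of these CpGs had an adjusted p under 0.05, as for all listed cytosines (0%), with a lowest adjusted p of 0.0781. For the strand averages 0 of 3629 passed, as for all 153202 CpGs (0%), with a lowest adjusted p of 0.0948. The exact permutation test called 0 in both, with a smallest unadjusted p of 0.00217, the lowest that 6 against 6 cows allow. Limma moves the spread of each cytosine or CpG towards that of all fitted together. Its p therefore does not measure the spread of a single CpG alone. Without MSG replicate 4 limma passed 1 of the 7258 cytosines, the only 1 of all 196275, and without MSG replicate 6 it passed 8 of the 7258 and 74 of all 196275. An unadjusted limma p under 0.05 was reached by 2694 of the 3629 CpGs (74.2%), 28021 of the other CpGs listed on both strands (71.0%), and 50.4% of all CpGs. By the exact permutation test it was reached by 1693 of the 3629 (46.65%) and 35.6% of all CpGs. The groups' cows did not overlap at 155 of the 3629 CpGs (4.27%), against 1424 of the others (3.61%) and 2.65% of all CpGs. Of the 155, 80 were higher in MSG (2.20% of the 3629), where 1.6% of all CpGs were higher without overlap. The other 75 were lower (2.07% of the 3629), where 1.05% of all CpGs were. All CpGs include the 110129 listed on a single strand, and the other CpGs listed on both strands were not split by direction. With a single strand standing for a cow with 1 strand missing, 112 of the 3629 had no overlap.

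The CpGs discordant in the most cows carried low levels in the group with the zeros, which follows in part from the zeros themselves. At a distal intergenic CpG without a gene symbol (chromosome 19, 62375693 to 62375694), the minus strand was at 0 in 7 cows, 5 of them MRG cows, in which the plus strand stood at 21.1%, 25%, 20%, 16.7% and 26.7%. In the MSG cows with a 0 the plus strand stood at 35.7% and 27.3%. MRG replicate 3, at 44.4% and 26.7%, was the MRG cow with methylation on both strands. The strand average was 59.15% ± 37.1 for MSG cows and 15.0% ± 10.2 for MRG cows (SD, n = 6 per group), with overlap between the groups.

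RASA2 encodes a GTPase-activating protein that restrains RAS. At a CpG in its first intron (chromosome 1, 127445317 to 127445318), the minus strand was at 0 in 5 MSG and 2 MRG cows, and the plus strand opposite stood at 12.5% to 33.3%. No cow had the 0 on the plus strand. The strand average in MSG had a lowest value of 6.25%, a median of 10.55% and a highest of 48.1%, and in MRG 8.33%, 47.8% and 100%.

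DHRS9 encodes a dehydrogenase that acts on retinol and steroids. At a CpG in its last intron (chromosome 2, 27069887 to 27069888), all 6 MSG cows were discordant, 5 of them with the minus strand and MSG replicate 4 with the plus strand at 0. Their strand averages ran from 2.94% to 7.5% (4.81% ± 1.78, SD, n = 6). The MRG cows ran from 0% to 93.3% and overlapped with them.

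Near OCM, which encodes the calcium-binding protein oncomodulin, a distal intergenic CpG (chromosome 25, 37925840 to 37925841) was discordant in 4 MSG and 2 MRG cows. The 0 was on the minus strand in 4 of these cows and on the plus strand in 2. A CpG assigned to MIPOL1 (chromosome 21, 47313040 to 47313041) lay in an intron of another annotated gene. Its plus strand was at 0 in MSG replicate 4, opposite 37.5%, and in 4 MRG cows, opposite 15.4%, 50%, 11.1% and 8.33%.

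**Figure D4:**
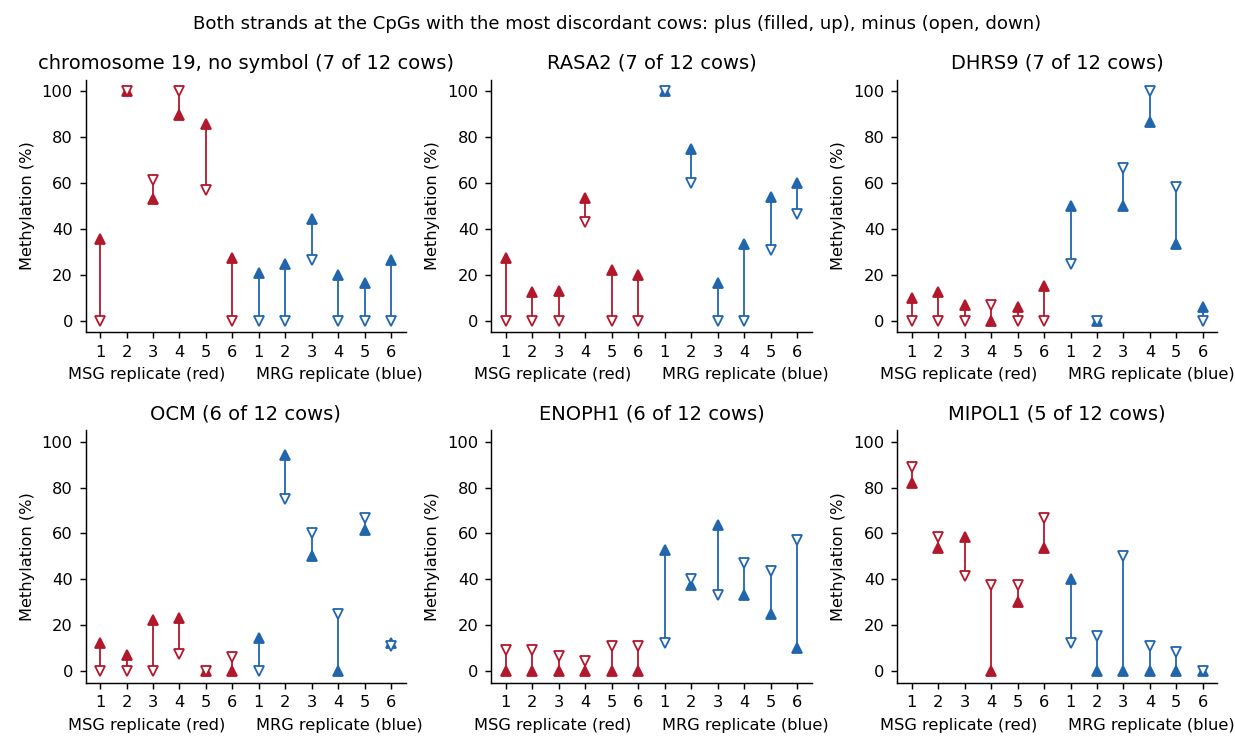
Percent methylation (vertical axis) on the plus strand (filled) and minus strand (open) in each cow (horizontal axis, red MSG, blue MRG) at the CpGs with the most discordant cows. A line joins the strands of a cow; at RASA2 and the chromosome 19 CpG all 7 zeros are on the minus strand, and at ENOPH1 all 6 are on the plus strand of MSG cows.

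ENOPH1, whose product recycles methionine in the salvage pathway, held the run with the most of these CpGs. At a promoter CpG 1458 bases inside the gene from its start (chromosome 6, 97218653 to 97218654), the plus strand was at 0 in all 6 MSG cows. The minus strand of these cows stood at 9.09%, 9.09%, 6.67%, 4.55%, 11.1% and 11.1%. In the MRG cows the plus strand had a lowest value of 10%, a median of 35.4% and a highest of 63.6%, and the minus strand 12.5%, 41.9% and 57.1%. The groups did not overlap on either strand. The strand averages were 4.30% ± 1.29 for MSG cows and 38.0% ± 5.93 for MRG cows (SD, n = 6 per group). Limma gave an adjusted p of 0.0948 with a standard error of 14.4 points. That error draws on the spread at all fitted CpGs, so this p does not measure the spread between these cows here. The unadjusted exact permutation p was 0.00217, at a CpG listed for a group difference.

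Within 1 kb, 6 such CpGs of the ENOPH1 promoter followed each other (chromosome 6, 97218451 to 97218654). Of the 72 strand values of MSG cows at these 6 CpGs, 53 were 0 and the highest was 15.4%. Of the 72 strand values of MRG cows 1 was 0, at the CpG starting at 97218610, where MRG replicate 5 had 27.8% on the plus strand and all 6 MSG cows were at 0 on both strands. Across these CpGs the 0 lay on the plus strand in some MSG cows and on the minus strand in others. Another 3 such CpGs lay in the first intron, and there MSG replicate 5 stood apart from the other MSG cows, with 40% and 72.7% on the strands of the CpG at 97242615 and 47.6% and 43.75% at 97243972. All 9 CpGs were lower in MSG.

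**Figure D5:**
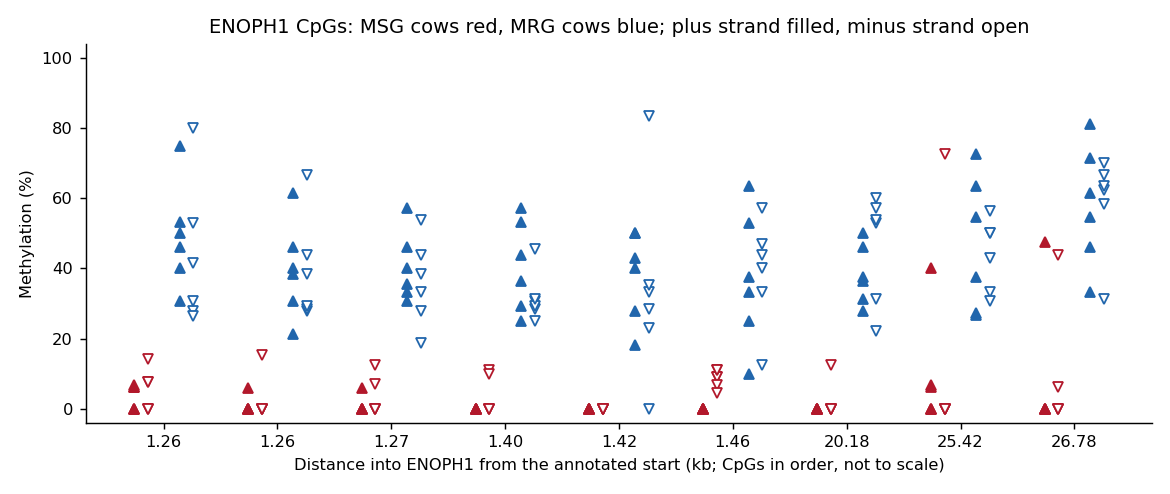
Percent methylation (vertical axis) per cow and strand at the 9 ENOPH1 CpGs with a strand-discordant zero, ordered by distance into the gene from its start in kb (horizontal axis, not to scale; red MSG, blue MRG, filled plus strand, open minus strand). At the 6 promoter CpGs the MSG cows lie at or under 15.4%, while 1 of the 72 MRG values is 0.

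CpGs with a gene symbol, values in all 12 cows and no overlap between groups were ranked by difference, with 1 per gene and direction. Those with the largest differences were discordant in 1 cow each. A CpG near the annotated U6 RNA LOC112447179 (chromosome 6, 2752150 to 2752151) ran from 37.3% to 91.7% in MSG with a median of 55.5%, and from 0% to 13.3% in MRG with a median of 0%. Near BID, which encodes a protein that promotes apoptosis (chromosome 5, 109134411 to 109134412), the MSG cows ran from 60.1% to 96.7% with a median of 87.6% and the MRG cows from 0% to 52.7% with a median of 20.4%. In these examples the discordant zero stood opposite 9.09% in MRG cows near 0.

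Others had a zero opposite a high value. Near GPAT3, which encodes an enzyme of triacylglycerol synthesis (chromosome 6, 98415735 to 98415736), MRG replicate 1 was at 0 on the plus strand and 70.6% on the minus strand. The other MRG cows were above 0 on both strands there, and the strand averages were 86.9% ± 7.42 for MSG cows and 33.3% ± 9.08 for MRG cows (SD, n = 6 per group). Near LOC112448367 (chromosome 1, 124778113 to 124778114) MRG replicate 6 had 62.5% on the plus strand and 0 on the minus strand. The ranked CpGs higher in MSG also included a CpG near LOC112443607 (chromosome 2, 59884121 to 59884122), with 14.3% opposite the 0. The last lay in the promoter of LOC112449036 (chromosome 12, 16903515 to 16903516), with 8.33%.

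In the other direction, an intronic CpG of the transcriptional corepressor gene TLE4 (chromosome 8, 55677664 to 55677665) ran from 0% to 51.4% in MSG with a median of 33.85%, and from 52.8% to 100% in MRG with a median of 94.9%. MSG replicate 6 had 0 on the plus strand and 45.45% on the minus strand there. A CpG near TNFAIP3, which encodes an inhibitor of NF-kappaB signalling (chromosome 9, 75678828 to 75678829), ran from 0% to 47.6% in MSG and from 50% to 100% in MRG. Its zero, in MSG replicate 5, stood opposite 11.1%. The CpGs assigned to C28H1orf198 (chromosome 28, 3540321 to 3540322), NAT10 (chromosome 15, 64803693 to 64803694), LOC112447179 (chromosome 6, 2713362 to 2713363) and LOC112443607 (chromosome 2, 59913381 to 59913382) completed the lower set. Opposite their zeros stood 4.76%, 7.14%, 30.8% and 6.25%.

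At promoters the largest differences among CpGs with a gene symbol, 1 per gene and direction, came with wide spread between cows. For SAMSN1, which encodes an adaptor protein of immune cells (chromosome 1, 22616462 to 22616463), the MSG cows ran from 0% to 100% with a median of 73.7% and the MRG cows from 0% to 41.9% with a median of 0%. For BAX, a gene of the apoptosis machinery (chromosome 18, 55532466 to 55532467), they ran from 0% to 100% in MSG (n = 6) and from 0% to 42.0% in MRG (n = 4). MRG replicate 6 was at 0 on the plus strand and 50% on the minus strand of the BAX CpG. TMEM97 (chromosome 19, 19804720 to 19804721) and FIGLA (chromosome 11, 13603233 to 13603234) were the others higher in MSG, with 41.2% and 7.14% opposite the zeros.

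Lower in MSG were promoter CpGs of MCHR1 (chromosome 5, 111987148 to 111987149), ENTPD2 (chromosome 11, 106083765 to 106083766), ARHGEF40 (chromosome 10, 26021575 to 26021576) and CHADL (chromosome 5, 112395209 to 112395210). MCHR1, which encodes a receptor of melanin-concentrating hormone, ran from 0% to 61.2% in MSG with a median of 0% and from 48.5% to 96.4% in MRG with a median of 64.2%. CHADL ran from 0% to 88.8% in MSG and from 87.5% to 100% in MRG, and its zero in MSG replicate 5 stood opposite 35.7%. The groups overlapped at all 8 of these promoter CpGs. The limma adjusted p was 0.0948 for each of these 8 and for each of the 12 CpGs without overlap described above.

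The widest gaps between strands, chosen after their values had been seen, reached from 0 to full methylation. In the last intron of TNFRSF11A, which encodes the receptor RANK (chromosome 24, 60781991 to 60781992), MSG replicate 4 had 0 on the plus strand and 100% on the minus strand. The other MSG cows had 33.3% to 100% on both strands, and 4 MRG cows were at 0 on both. At a distal CpG without a symbol (chromosome 26, 43944273 to 43944274) MRG replicate 4 also had 0 and 100%. These were the only 2 of the 4235 zeros opposite exactly 100%. A distal CpG assigned to TLE4 (chromosome 8, 55892354 to 55892355) had 85.7% on the plus strand and 0 on the minus strand in MSG replicate 2. A CpG near ANXA5, which encodes a phosphatidylserine-binding protein (chromosome 6, 3552089 to 3552090), had 0 and 84.6% in MRG replicate 1.

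A gene symbol was given for 2742 of the CpGs, which spread over 1632 symbols, and 1058 symbols had exactly 1. The most were assigned to THSD7B (15), LMO3 (12), LOC112447637 (12) and MIR1256 (12), followed by LOC112443345, LOC112448179 and RHOU (10 each). ENOPH1, GYPC, KCNJ2, LOC112446160 and SEC22A had 9 each. The CpGs of THSD7B and MIR1256 pointed both ways, 8 higher and 7 lower in MSG for THSD7B and 6 of each for MIR1256. Of those of LOC112447637, 11 of 12 were higher in MSG, and over them the MSG cows ran from 7.74% to 81.9% with a median of 44.6% while the MRG cows ran from 7.24% to 8.54% with a median of 8.16%. LMO3 had 7 higher and 5 lower. RHOU had 8 of 10 lower, LOC112448179 also 8 of 10 and LOC112443345 9 of 10. All 9 CpGs of ENOPH1 lay inside the gene, while 0 of the 10 of RHOU and 1 of the 12 of LMO3 did. KCNJ2 encodes a potassium channel, and all 9 of its CpGs were outside the gene and higher in MSG. Over them the MSG cows ran from 39.2% to 92.3% with a median of 45.8% and the MRG cows from 0.397% to 28.85% with a median of 6.27%, without overlap.

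Runs of these CpGs closer than 1 kb mostly pointed one way. The CpGs formed 3444 runs, 157 of them with at least 2 CpGs, and 143 of the 157 had a single direction. The same share was not computed for the other CpGs listed on both strands, so it is no trait particular to these. After ENOPH1, the largest run held 5 CpGs without a symbol (chromosome 5, 119079443 to 119079582), all lower in MSG. Of the 1227 listed windows of 500 bases, 160 held at least 1 of the CpGs. The 169 CpGs within them (4.66%, against 3.44% of the other CpGs) all had the direction of their window, which was made from the same reads.

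Of 351 immune, mammary, blood cell, DNA methylation and imprinted genes in 16 lists, 43 had at least 1 of these CpGs. They held 73 of the 718 CpGs of list genes with both strands listed (10.2%, against 8.43% of all CpGs listed on both strands), 43 higher and 30 lower in MSG, and 0 passed limma's test. The gene of a CpG is the one named in the authors' deposited table, and 0 of the 6 of CXCR4 and 0 of the 9 of GYPC lay inside the gene. Over all 3629 CpGs the median difference was 26.1 points, and over all 153202 listed CpGs 22.6 points, so the medians by list are read beside these values. These medians keep the sign of each difference. In a set that points both ways they depend on which direction has more CpGs and do not give a typical size. The median size without the sign was 36.8 points over the 3629 CpGs.

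Complement and antimicrobial genes had 12 of 91 CpGs listed on both strands (13.2%), 9 higher and 3 lower in MSG, with a median difference of 39.7 points. MASP1, a protease of the lectin pathway, had 5, all higher, with means of 53.75% ± 32.6 for MSG cows and 7.55% ± 18.9 for MRG cows (SD, n = 6 per group), and MRG replicate 4 stood at 47.0%. C9, the pore-forming component of complement, had 3, all lower.

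Genes of NF-kappaB and JAK-STAT signalling had 11 of 62 CpGs listed on both strands (17.7%), 7 higher and 4 lower, with a median difference of 26.8 points. TNFAIP3 had 4, of which 3 were lower. Cytokine and receptor genes had 9 of 140 (6.43%), 4 higher and 5 lower (median -29.7 points), among them 3 near the interferon receptor gene IFNAR1, all lower, and 1 near CSF2RB, higher.

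Chemokine and receptor genes had 9 of 93 (9.68%), 4 higher and 5 lower (median -24.55 points). CXCR4, a receptor that holds leukocytes in bone marrow, had 6, with 3 in each direction, and 1 near CX3CR1 was lower. One CpG of CXCR4 (chromosome 2, 61178769 to 61178770) was discordant in 5 cows, each with the 0 on the minus strand.

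The smaller lists gave a few CpGs each, out of those listed on both strands. Pattern recognition genes had 3 of 20 (2 higher, 1 lower, median 32.6 points), with CLEC4E lower and TLR3 higher, and adhesion and migration genes had 4 of 40 (2 higher, 2 lower, median -3.31 points), with 2 lower in ARHGAP15 and 1 higher in CD47. DNA methylation genes had 2 of 18, both higher (median 37.1 points), in TET3 and ZBTB38. Imprinted genes had 2 of 31 (median 3.597 points), with CDKN1C lower and GRB10 higher, and mammary and milk genes had 3 of 45 (2 higher, 1 lower, median 35.2 points), with BTN1A1 lower and LPL higher.

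Of the blood cell marker lists, T cell genes had 5 of 63 (4 higher, 1 lower, median 28.2 points), 2 near THEMIS and 1 near CD3E, and NK cell genes had 3 of 12, all higher (median 33.7 points), in or near GNLY and EOMES. Erythroid and platelet genes had 10 of 65, or 15.4% (3 higher, 7 lower, median -41.2 points), of which GYPC, the gene of glycophorin C, held 9 with 7 lower, and SPTB held 1. Antigen presentation, B cell, monocyte and neutrophil genes had 0, of 23, 7, 8 and 0 CpGs listed on both strands.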

How the data were processed

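The authors deposited percent methylation per cow for CpG cytosines by strand, with their difference in percentage points (a score of MSG minus MRG), p-value and q-value, and annotation, per the file headers. Tools listed without a role, per the submitters' processing notes, were Bismark, DRAGEN, ChIPseeker 1.32.1 and fastp 0.23.1, and the build was ARS-UCD1.2. The differential test was not given in the sources used here. Their percent table of 1227 windows (500 bases, step 250) gave directions only, and 36 of its per-sample columns, not tied to cows by name, were set aside. Depth thus stayed out of the values, and no interval for it is given.

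Replicate numbers name cows in record order and pair none. All cytosines and CpGs were fitted with limma 3.58.1 in R 4.3.3, two-sided, without covariates, with Benjamini-Hochberg adjustment (threshold 0.05) over all 196275 cytosines or 153202 CpGs. A CpG's value was the mean of its listed strands, and a cow lacking one was missing. Means per cow were compared by exact permutation (924 regroupings) or sign flips (4096), in Python 3.11.15. Scripts were tested on simulated data.

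The CpGs, tests and gene lists were chosen with earlier results of these data known, so patterns known from them are not independent support. CpGs were named by a rule: the 6 with the most discordant cows; the 6 largest differences without overlap, all 12 cows valued, per direction; the 4 largest promoter differences per direction; the 8 symbols with the most CpGs, with ties; and 2 genes per list, of which 1 gene is not reported here. The sets without overlap and at promoters were limited to CpGs with a gene symbol, with 1 CpG per gene in each direction. A further rule, for strands of opposite sign, found 0 CpGs. Alternatives were the exact test, 12 valued cows only, a threshold of 0.01, leaving out each cow, other treatments of the zeros or of a missing strand, minimums of 25% and 50% on the opposite strand, CpGs with at least 2 discordant cows, and neighbour distances of 50 and 500 bases. No sequence is shown.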

Additional observations from a re-analysis of the deposited data

Results flagged for a closer look

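In 13 of 60 groups of cows at the named CpGs, a cow lay far from the rest of its group by Dixon's test on the strand averages; chance alone gives about 1 in 20, or 3. In 14 groups for the measures per cow 0 did. No reason was tested.

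Some cows stood above a group near 0. At the CpG on chromosome 19 without a symbol MRG replicate 3 stood at 35.6% (others 8.33% to 13.3%), and at RASA2 MSG replicate 4 at 48.1% (others 6.25% to 13.6%). At LOC112447179 (2752150) MRG replicate 2 stood at 13.3% (others 0% to 4.55%), at SAMSN1 MRG replicate 5 at 41.9% (others 0% to 4.55%), and at FIGLA MRG replicate 1 at 41.3% (others 0% to 3.57%). At MCHR1 MSG replicate 4 stood at 61.2% (others 0% to 3.33%), and at NAT10 MSG replicate 1 at 42.3% (others 0% to 3.57%).

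Other cows stood apart from a methylated group. At NAT10 MRG replicate 2 stood at 100% (others 43.75% to 55.2%), and at TNFRSF11A MSG replicate 1 at 100% (others 41.7% to 50%). At LOC112448367 MSG replicate 2 stood at 58.3% (others 84.4% to 95%), at ARHGEF40 MRG replicate 1 at 64.3% (4 others at 100%), and at the chromosome 26 CpG MSG replicate 4 at 60% (others 94.1% to 100%). At ENTPD2 MRG replicate 3 stood at 94.4% (others 95.45% to 95.8%), a gap of about 1 point in a narrow group.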

How the results depend on the processing

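No paired analysis was possible because the labels gave no replicate numbers shared between the groups. Beside the values in the text, 37 of 47 alternative values of the comparisons other than leaving out a cow were rated unchanged. For the measures per cow, this means the same direction and side of the threshold. For counts, it means a count of similar size to the main count. Counts at an unadjusted p under 0.05 were 2872 cytosines (limma 5005) and 1693 CpGs (limma 2694) by the exact permutation test. CpGs without overlap numbered 155, and 243 with the discordant zeros left out and 79 with values in all 12 cows, which are fewer CpGs. The plus-strand share minus the minus-strand share, -0.739 points, turned to 0.0790 at a minimum of 50% on the opposite strand and to 0.295 with all 12 cows valued (exact permutation p = 0.994 and 0.803). At that minimum, recurrence was 0.0883 points (exact permutation p = 0.260) and the strand gap 0.444 points (exact permutation p = 0.0962). The gap was 0.0121 points at averages of 20% to 80%, and the neighbour difference 10.1 points within 500 bases, where the main distance gave 21.4. The share of neighbours nearer to the 0 turned to -30.2 points from an even split at a minimum of 25%, which selects high opposite values. No other cause was tested. The neighbour tests and the same-strand test gave no value at a minimum of 50%, since some cows had no usable zeros.

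Leaving out each cow in turn, limma called 0 to 8 cytosines and 0 to 0 CpGs. Counts were 4007 to 4672 cytosines and 2113 to 2452 CpGs at an unadjusted p under 0.05, and 217 to 279 CpGs without overlap, where fewer cows make overlap less likely. The group difference ran from -0.128 to -0.0588 points, the strand share from -1.48 to -0.406, recurrence from 1.89 to 2.07, the gap from 0.702 to 0.921, the neighbour difference from 19.8 to 22.8, its resemblance from 11.15 to 13.4 and the same-strand excess from 26.4 to 29.4. None of the 30 named CpGs passed limma's test in any of these settings (lowest adjusted p 0.0835). Unknown depth limits the single values.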
